A study of Mus musculus with 4 samples.

Results

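The unfolded protein response and the amino acid response are represented here by 37 genes, of 19938 measured in a study of calmodulin depletion in cultured mouse cortical neurons. They were taken as a fixed list of 3 transcription factors, 13 chaperones and quality control proteins of the endoplasmic reticulum (ER) and 21 targets of the transcription factor ATF4. The targets comprised 11 stress regulators and effectors, 5 enzymes and 5 amino acid transporters. All 37 were measured, by 39 probe sets with exactly 1 gene symbol each. The cultures came from newborn pups (postnatal day 0) of a mixed SV129 x C57BL/6 background, either Syt1 deficient or wild-type, and the labels do not tell which array had which genotype. All cultures, controls included, received lentivirus at 5 days in vitro (DIV), and RNA was purified at 14 to 15 DIV. Control cultures received control lentivirus, knockdown cultures lentivirus with shRNAs against CaM 1-3 (the calmodulin genes), and rescue cultures those shRNAs with a wild-type CaM that resists them. Knockdown and rescue had 2 samples each, one in each of 2 repeats, and each was deposited as a ratio to the control array of its repeat, so both groups of a repeat share a control.

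Values are log2 ratios, on which 0 is equality with control and 1 is a doubling. Ratios carry no signal level, so levels of different genes cannot be compared, dim probe sets cannot be set apart, and the labelled cell type cannot be checked against its markers. Calm2 was at -1.08 and -1.72 in the knockdown and at -0.84 and -1.28 in the rescue, and Calm3 at -1.32 and -2.40 and at -2.41 and -3.55. Every shRNA sample was thus below control for both. The standard deviation across genes was 0.349 in knockdown repeat 2 and between 0.232 and 0.243 in the other samples. The labels do not say whether the repeats were separate cultures, so a p-value measures only how these samples vary among themselves, possibly for technical reasons. In such bulk RNA, fewer cells of a type and less RNA per cell cannot be told apart.

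Proteins of the secretory pathway fold in the ER. When unfolded proteins build up there, the sensors IRE1, ATF6 and PERK start the unfolded protein response, in which spliced XBP1 and cleaved ATF6 raise chaperone transcription. PERK phosphorylates the translation factor eIF2alpha, as does GCN2 when amino acids run short, and this integrated stress response favours translation of the ATF4 mRNA. ATF4 then raises transcription of genes for amino acid uptake and synthesis and of stress regulators such as CHOP. Chaperones and ATF4 targets thus report mainly on different arms, without a clean division.

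Promoters of some members hold the binding letters of these arms, and the stretches below are shown because chaperones and ATF4 targets, the groups compared here, differ in these letters. RefSeq promoters of the assembly GRCm38.p6, 250 bases before to 50 after an annotated start, were at hand for 33 of the 37 members (37 promoters). Atf6, Manf, Slc7a3 and Slc7a5 had no entry. Both strands were searched for the C/EBP-ATF response element TGATGNAA (CARE), which ATF4 binds, for the unfolded protein response element TGACGTGG (UPRE), for the ER stress element of CCAAT and CCACG with 9 bases between them (ERSE), and for its variant of ATTGG and CCACG with 1 base between them (ERSE-II). No 2 matches in a member's promoter overlapped. Each stretch runs 5′ to 3′ on the gene's strand with up to 30 bases on either side, and capitals mark the matched letters. In the stretches of Asns (chr6:7693210-7693262, minus strand), Atf3 (chr1:191183406-191183473, minus), Chac1 (chr2:119351019-119351086, plus) and Slc7a11 (chr3:50443623-50443709, minus) they mark CARE matches, written as their reverse complement where the match is on the other strand. In those of Hspa5 (chr2:34771995-34772073, plus), Canx (chr11:50325770-50325848, minus) and Pdia6 (chr12:17266461-17266539, plus) they mark the ERSE. In Herpud1 (chr8:94386287-94386417, plus) they mark a CARE and the ERSE-II.
Asns: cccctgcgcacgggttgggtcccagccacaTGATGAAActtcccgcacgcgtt
Atf3: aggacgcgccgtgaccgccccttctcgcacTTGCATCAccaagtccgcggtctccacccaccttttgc
Chac1: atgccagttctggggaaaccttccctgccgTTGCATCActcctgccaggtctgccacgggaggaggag
Slc7a11: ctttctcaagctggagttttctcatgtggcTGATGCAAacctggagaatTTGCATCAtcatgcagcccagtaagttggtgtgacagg
Hspa5: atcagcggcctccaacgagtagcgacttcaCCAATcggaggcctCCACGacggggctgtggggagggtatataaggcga
Canx: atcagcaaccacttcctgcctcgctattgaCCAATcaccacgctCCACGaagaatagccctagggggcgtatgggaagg
Pdia6: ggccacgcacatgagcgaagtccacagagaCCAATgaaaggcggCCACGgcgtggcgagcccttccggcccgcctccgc
Herpud1: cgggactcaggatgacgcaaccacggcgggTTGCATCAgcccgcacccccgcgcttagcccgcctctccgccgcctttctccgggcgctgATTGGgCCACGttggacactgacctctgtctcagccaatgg

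The ERSE was found in 7 of 12 chaperone promoters (58.3%) and in 0 of 23 promoters of ATF4 targets, against 0.119% of the 32851 promoters in the table. The chaperone genes were Calr, Canx, Creld2, Dnajc3, Hsp90b1, Hspa5 and Pdia6, and Hsp90b1 had a pair of matches. The CARE was found in 7 of 23 promoters of ATF4 targets (30.4%), those of Asns, Atf3, Chac1, Nupr1, Slc7a11, Trib3 and Vldlr, and in 1 of 12 chaperone promoters, that of Herpud1, against 3.97% of all promoters. Slc7a11 had a pair of CARE matches, and the match in Trib3 lay after the start, at bases 15 to 22. The ERSE-II of Herpud1 was the only one among the members (0.0365% of all promoters), and the UPRE was in 0 of 37 (0.676% of all). A match describes letters in these windows and does not show that a factor was bound. The genes were listed beforehand as chaperones and ATF4 targets, so these shares describe the lists and test nothing.

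**Figure D1:**
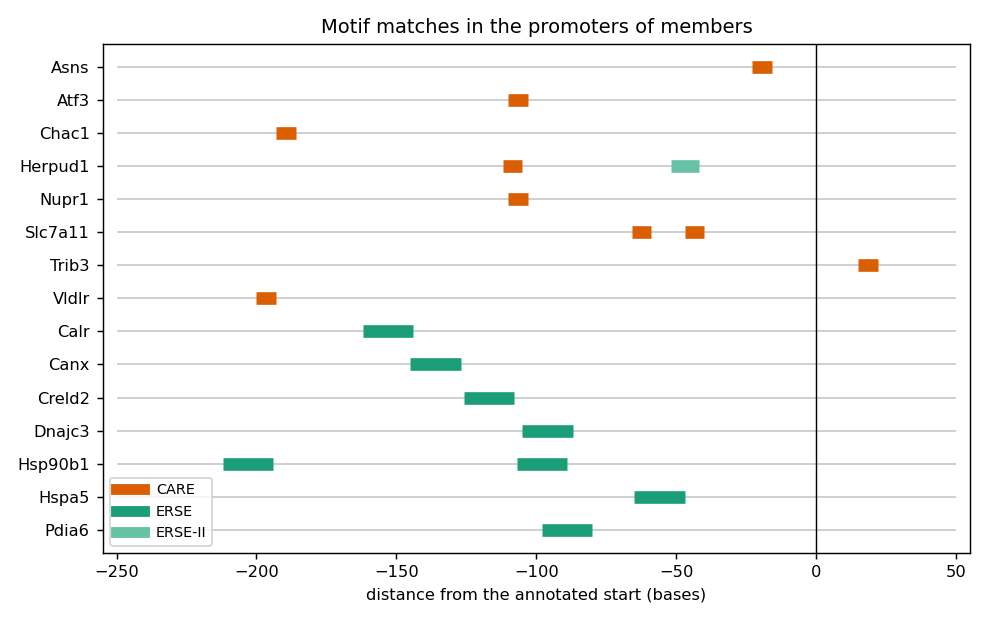
Position of each motif match (coloured bars) in the 300-base promoters (grey lines) of the 15 members with a match, with the distance from the annotated start in bases on the horizontal axis. CARE matches lie in ATF4 targets and in Herpud1, ERSE matches only in chaperones among the members with a promoter.

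ATF4 targets and ER chaperones did not sit together in the samples. The median of the 21 ATF4 targets was -0.13 in the first knockdown repeat and 0.44 in the second, then 0.21 and 0.31 in the rescue repeats. That of the 13 chaperones was -0.01, 0.04, 0.06 and -0.07 in the same order. The targets thus lay below the chaperones in knockdown repeat 1, by -0.12, and above them in the other samples, by 0.40, 0.15 and 0.38. Over all genes the median stayed between -0.02 and 0.02.

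Counts gave the same order. Of the ATF4 targets, 4 of 21 were above control in knockdown repeat 1 and 19 in knockdown repeat 2, against 15 and 18 in the rescue repeats (19.0%, 90.5%, 71.4% and 85.7%). Of the chaperones, 6, 8, 7 and 5 of 13 were above control. Over all genes the shares were 47.0%, 52.4%, 48.1% and 47.1%. At least 1.5-fold above control were 0, 7, 2 and 5 of the 21 targets, against 0.813%, 3.91%, 1.16% and 0.978% of all genes, and 0 of 13 chaperones in each sample.

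**Figure D2:**
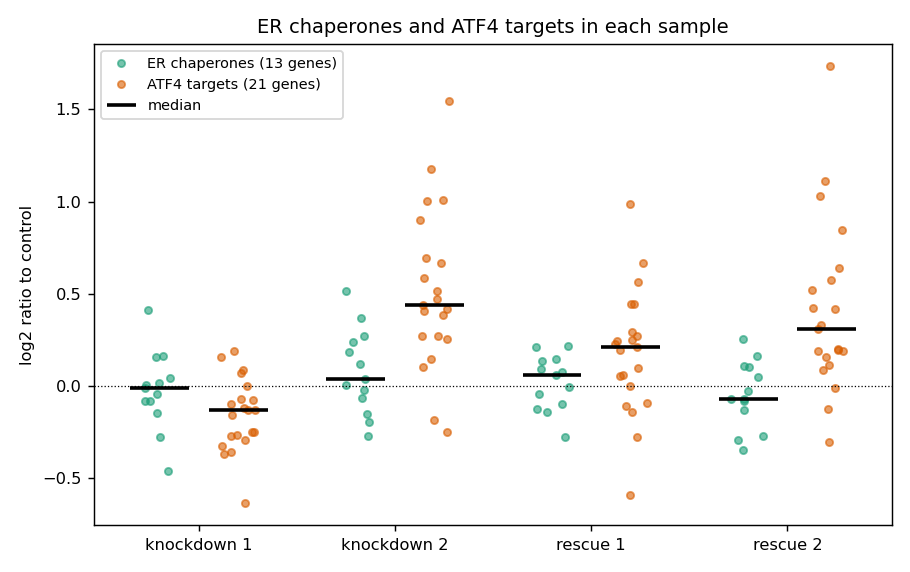
Log2 ratio to control (vertical axis) of each of the 13 ER chaperones (green) and 21 ATF4 targets (orange) in the 4 samples, with the median of each group as a black bar. The target median is -0.13 in knockdown repeat 1 and between 0.21 and 0.44 in the other samples, while the chaperone median stays between -0.07 and 0.06.

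No member passed an adjusted p of 0.05 in limma. Against control, 0 of 37 members were called in the knockdown, where 61 of 19938 genes (0.306%) were, and 0 in the rescue, where no gene was (0 of 19938, 0.0%, with 1484 genes and 4 members at an unadjusted p under 0.05). Between knockdown and rescue 0 of 37 were called, against 14 genes (0.0702%). The smallest adjusted p of a member was 0.189, 0.464 and 0.706 in these comparisons. When the repeat entered as a block, Slc7a3 passed against control in the knockdown, where 5.39% of all genes passed, and in the rescue, where 0.125% did. The block takes the difference between repeats out of the spread, so its p-values against control leave out how the repeats vary. Between knockdown and rescue 0 members passed with the block (smallest adjusted p = 0.328), against 0.617% of all genes. The main fit has no term for the repeat, so its SE and p-values between knockdown and rescue do not use the pairing.

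**Figure D3:**
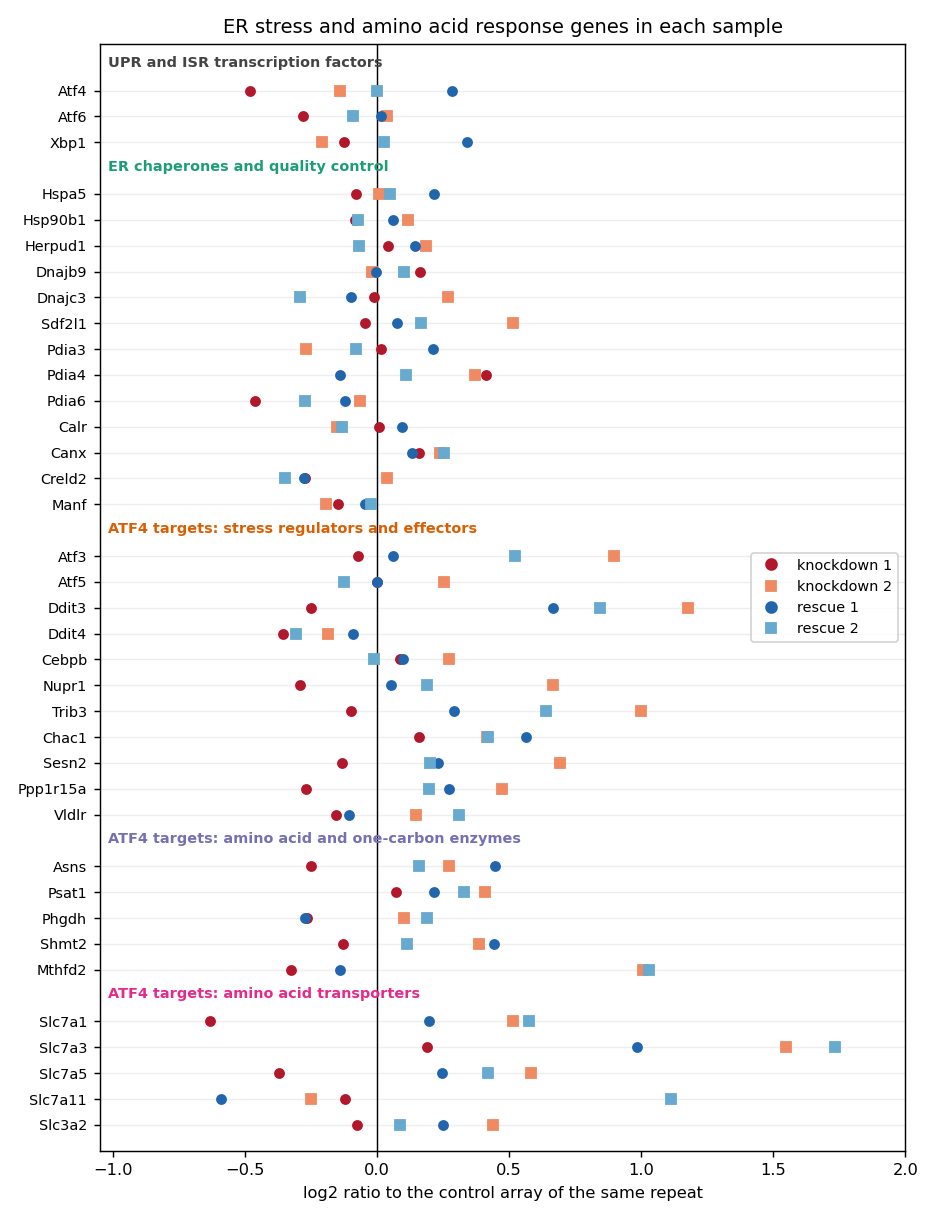
Log2 ratio to the control array of the same repeat (horizontal axis) of each of the 37 members in the 2 knockdown samples (red and orange) and the 2 rescue samples (blue), grouped by role. In 11 of 21 ATF4 targets knockdown repeat 1 is below control and the other samples are above it, and the chaperones stay within 0.52 of control.

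The transcription factors at the head of the response lay between -0.48 and 0.34. Atf4, whose protein is governed mainly by translation, was at -0.48 and -0.14 in the knockdown and at 0.28 and -0.0001 in the rescue. Both knockdown values lay below both rescue values, with a difference of -0.45 (SE 0.20, n = 2 per group, limma adjusted p = 0.730). Against control the knockdown mean was -0.31 (SE 0.14, adjusted p = 0.323). Xbp1, which encodes the factor made from an IRE1-spliced mRNA, was at -0.13 and -0.21 in the knockdown and at 0.34 and 0.02 in the rescue, a rescue mean of 0.18 (SE 0.13, adjusted p = 0.799). Its groups did not overlap either, and a gene-level ratio does not separate its spliced form. Atf6, the membrane-bound factor cut free under stress, was at -0.28 and 0.04 in the knockdown and at 0.02 and -0.09 in the rescue, so its groups overlapped.

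Among the chaperones, Hspa5 (BiP), the central ER chaperone and a common readout of ER stress, was at -0.08 and 0.008 in the knockdown and at 0.21 and 0.05 in the rescue. All 4 values lay within 1.16-fold of control. Hsp90b1, the ER member of the Hsp90 family, was at -0.08 and 0.12 and at 0.06 and -0.07. The lectin chaperones, which hold glycoproteins in the folding cycle, differed from each other. Calr was on either side of control (0.008 and -0.15, then 0.09 and -0.13), whereas Canx was above it in all samples, at 0.16 and 0.24 in the knockdown and at 0.13 and 0.25 in the rescue. The rescue mean of Canx was 0.19 (SE 0.12, n = 2, adjusted p = 0.768), and 12.1% of all genes were above control in all 4 samples.

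The disulfide isomerases, which form and reshuffle disulfide bonds, went different ways. Pdia4 was at 0.41 and 0.37 in the knockdown and at -0.14 and 0.11 in the rescue. Both knockdown values lay above both rescue values, by 0.41 on average (SE 0.17, adjusted p = 0.706), and the knockdown mean of 0.39 had the smallest adjusted p of any member against control (SE 0.12, n = 2, adjusted p = 0.189). Its 2 probe sets were both high in the knockdown (0.35 and 0.38, and 0.47 and 0.37) and lower in the rescue (-0.002 and 0.04, and -0.28 and 0.18). Pdia6 lay below control in all samples, at -0.46 and -0.07 in the knockdown (mean -0.26, SE 0.14, adjusted p = 0.391) and -0.12 and -0.27 in the rescue. Pdia3 was at 0.02 and -0.27 in the knockdown and at 0.21 and -0.08 in the rescue. Within each repeat its knockdown value was the lower, with a mean difference of -0.19 (SE 0.19, adjusted p = 1.00).

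The co-chaperones of BiP and the quality control genes shared no pattern. Dnajc3, which encodes a BiP co-chaperone also known as an inhibitor of PERK, was at -0.01 and 0.27 in the knockdown and at -0.10 and -0.29 in the rescue. Both knockdown values lay above both rescue values. Its 2 probe sets held identical values in every sample, so they count as 1 measurement. Dnajb9, another BiP co-chaperone, was at 0.16 and -0.02 and at -0.004 and 0.10. Sdf2l1, part of an ER chaperone complex, was highest in knockdown repeat 2 at 0.52, against -0.05 in knockdown repeat 1 and 0.08 and 0.17 in the rescue. Herpud1, a component of ER-associated degradation and the 1 chaperone-group gene with a CARE, was at 0.04 and 0.18 and at 0.14 and -0.07. It was above control in all samples but rescue repeat 2.

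The last pair are small ER-resident stress-inducible proteins. Creld2 was at -0.27 and 0.04 in the knockdown and at -0.28 and -0.35 in the rescue, a rescue mean of -0.31 (SE 0.13, n = 2, adjusted p = 0.650). That was the lowest rescue mean among the chaperones, and knockdown repeat 2 was the sample that stood off from the other values. Manf, also secreted as a neurotrophic factor, was below control throughout, at -0.15 and -0.19 in the knockdown and at -0.04 and -0.02 in the rescue. Between them the 13 chaperones ranged from -0.46 to 0.41 in knockdown repeat 1 and from -0.27 to 0.52 in knockdown repeat 2. They ranged from -0.28 to 0.21 in rescue repeat 1 and from -0.35 to 0.25 in rescue repeat 2, with no shared direction.

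The stress regulators among the ATF4 targets were led by Ddit3, which encodes CHOP, the factor that links prolonged stress to cell death. It was at -0.25 in knockdown repeat 1 and 1.18 in knockdown repeat 2, and at 0.67 and 0.85 in the rescue. Both rescue values and knockdown repeat 2 were more than 1.5-fold above control, and knockdown repeat 1 lay below control. The rescue mean was 0.76, or 1.69-fold (SE 0.28, n = 2, limma adjusted p = 0.613), rank 34 from the top of 19938 genes. Trib3, a pseudokinase that damps ATF4 and CHOP, had the same order, with -0.10 and 1.00 in the knockdown and at 0.29 and 0.64 in the rescue. Atf3, an early stress transcription factor, was at -0.07 and 0.90 and at 0.06 and 0.52. Both were highest in knockdown repeat 2 and next in rescue repeat 2.

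Chac1, which breaks down glutathione, behaved unlike these 3 in that all samples were above control. It was at 0.16 and 0.42 in the knockdown and at 0.56 and 0.42 in the rescue. The knockdown mean was 0.29 (SE 0.13, n = 2, adjusted p = 0.314), and the difference from rescue was -0.20 (SE 0.18, adjusted p = 1.00). Ddit4, an inhibitor of mTORC1, was the only ATF4 target below control in all samples, at -0.36 and -0.19 in the knockdown (mean -0.27, SE 0.12, adjusted p = 0.331) and -0.09 and -0.31 in the rescue (mean -0.20, SE 0.12, adjusted p = 0.773). Over all genes 14.9% were below control in all 4.

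Sesn2, a leucine sensor that restrains mTORC1, was at -0.13 and 0.69 in the knockdown and at 0.23 and 0.20 in the rescue. Nupr1, a small chromatin-associated stress protein, was at -0.29 and 0.67 and at 0.05 and 0.19. Ppp1r15a, the phosphatase subunit that reverses eIF2alpha phosphorylation, was at -0.27 and 0.47 and at 0.27 and 0.20. These genes shared the low value in knockdown repeat 1 and the highest in knockdown repeat 2, with the rescue samples between.

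The remaining regulators were smaller in range. Cebpb, a bZIP partner of ATF4, was at 0.09 and 0.27 in the knockdown and at 0.10 and -0.01 in the rescue. Atf5, a bZIP factor whose translation also depends on eIF2alpha, was at -0.001 and 0.25 and at -0.0007 and -0.13. Vldlr, a lipoprotein and reelin receptor, was at -0.16 and 0.15 and at -0.11 and 0.31. Vldlr was low in repeat 1 and high in repeat 2 of both groups, which share a control array within each repeat.

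The enzymes supply serine, one-carbon units and asparagine. Asns, asparagine synthetase, was at -0.25 and 0.27 in the knockdown and at 0.45 and 0.16 in the rescue, a rescue mean of 0.30 (SE 0.15, n = 2, adjusted p = 0.717). Shmt2, which moves one-carbon units from serine in mitochondria, had the same order of samples, at -0.13 and 0.39 and at 0.44 and 0.11. For both, rescue repeat 1 was the highest sample and knockdown repeat 1 the lowest.

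Mthfd2, the next mitochondrial one-carbon enzyme, was instead split by repeat. It was at -0.33 and 1.01 in the knockdown and at -0.14 and 1.03 in the rescue. Both repeat 2 samples had about 2-fold the control level (2.01-fold and 2.04-fold), and both repeat 1 samples lay below it. Its mean difference between knockdown and rescue was -0.10 (SE 0.47, adjusted p = 1.00), and within repeats 1 and 2 it was -0.18 and -0.02. The SE is from the fit without the repeat and so includes the split between repeats. Both samples of a repeat were divided by the same control array, so a split by repeat cannot be told apart from a difference between the control arrays. The serine synthesis genes were closer to control. Psat1 was above it in all samples, at 0.07 and 0.41 in the knockdown (mean 0.24, SE 0.13, adjusted p = 0.414) and 0.21 and 0.33 in the rescue, and Phgdh was at -0.26 and 0.10 and at -0.27 and 0.19, another gene low in repeat 1 and high in repeat 2.

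Of the transporters, Slc7a3, a carrier of arginine and other cationic amino acids, stood farthest above control of all members. It was at 0.19 and 1.55 in the knockdown and at 0.98 and 1.74 in the rescue. All samples were above control, with knockdown repeat 1 lowest and rescue repeat 2 highest, and the groups overlapped. The rescue mean was 1.36, or 2.57-fold (SE 0.30, n = 2, limma adjusted p = 0.464; 0.00984 when the repeat is a block), rank 4 of 19938 genes. In the knockdown the mean was 0.87, or 1.82-fold (SE 0.30, adjusted p = 0.216; 0.0139 with the block), rank 40. The p-values with the block leave out the difference between repeats, which was 1.36 in the knockdown and 0.75 in the rescue. The difference between knockdown and rescue was -0.49 (SE 0.42, adjusted p = 1.00), with the knockdown below the rescue in both repeats (-0.80 and -0.19).

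Slc7a1, the other cationic carrier, was at -0.63 in knockdown repeat 1, the lowest value of any member, and at 0.51 in knockdown repeat 2, with 0.20 and 0.57 in the rescue. Slc7a5, the large neutral amino acid carrier, was at -0.37 and 0.58 and at 0.24 and 0.42. Slc3a2, the heavy chain that pairs with Slc7a5 and Slc7a11, was at -0.08 and 0.44 and at 0.25 and 0.09. These 3 were below control in knockdown repeat 1 and above it in the other samples.

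Slc7a11, the cystine carrier of glutathione supply, was the only transporter below control in knockdown repeat 2 and in rescue repeat 1. It was at -0.12 and -0.25 in the knockdown and at -0.59 and 1.11 in the rescue. The rescue repeats lay on opposite sides of control, at 0.663-fold and 2.16-fold. The knockdown mean was -0.19 (SE 0.32, n = 2, adjusted p = 0.814).

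The values of the repeats show how far the ATF4 targets depended on the sample. The pattern of below control in knockdown repeat 1 and above it in the other samples held for 11 of 21 targets (52.4%), against 4.72% of all genes and 2 of 13 chaperones, Hspa5 and Sdf2l1. The 11 were Atf3, Ddit3, Nupr1, Trib3, Sesn2, Ppp1r15a, Asns, Shmt2, Slc7a1, Slc7a5 and Slc3a2. The pattern is that of the target medians in these same samples, so its count is a description and no test. From knockdown repeat 1 to knockdown repeat 2 the median difference was 0.52 for the targets, 0.09 for the chaperones and 0.02 for all genes. Between the rescue repeats it was 0.14 for the targets and -0.13 for the chaperones. Both rescue samples were above control for 14 of 21 targets (66.7%), against 24.9% of all genes, while both knockdown samples were for 4 of 21 (19.0%), Cebpb, Chac1, Psat1 and Slc7a3, against 30.5%.

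By size, Ddit3 and Slc7a3 were at least 1.5-fold above control in both rescue samples, as 0.160% of all genes were. No member was at least 1.5-fold from control in the same direction in both knockdown samples, as 0.281% of all genes were above and 0.757% below. The members called therefore depended on which samples entered the test. Without knockdown replicate 1, 7 members passed against control in the knockdown (Atf3, Ddit3, Mthfd2, Nupr1, Sesn2, Slc7a3 and Trib3, all higher), as did 6.38% of all genes, and 2 in the rescue (Ddit3 and Slc7a3), as did 0.883%. Without knockdown replicate 2, the same pair passed in the rescue (0.883% of all genes), and Ddit3, Slc7a1 and Slc7a3 were lower in the knockdown than in the rescue, where 0.737% of all genes were called in either direction. In these fits the lone sample of a group is assumed to vary like the other group. Without either knockdown replicate, the rescue against control rests on the rescue samples alone. It is then the same fit, so its repeated calls are a single result.

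**Figure D4:**
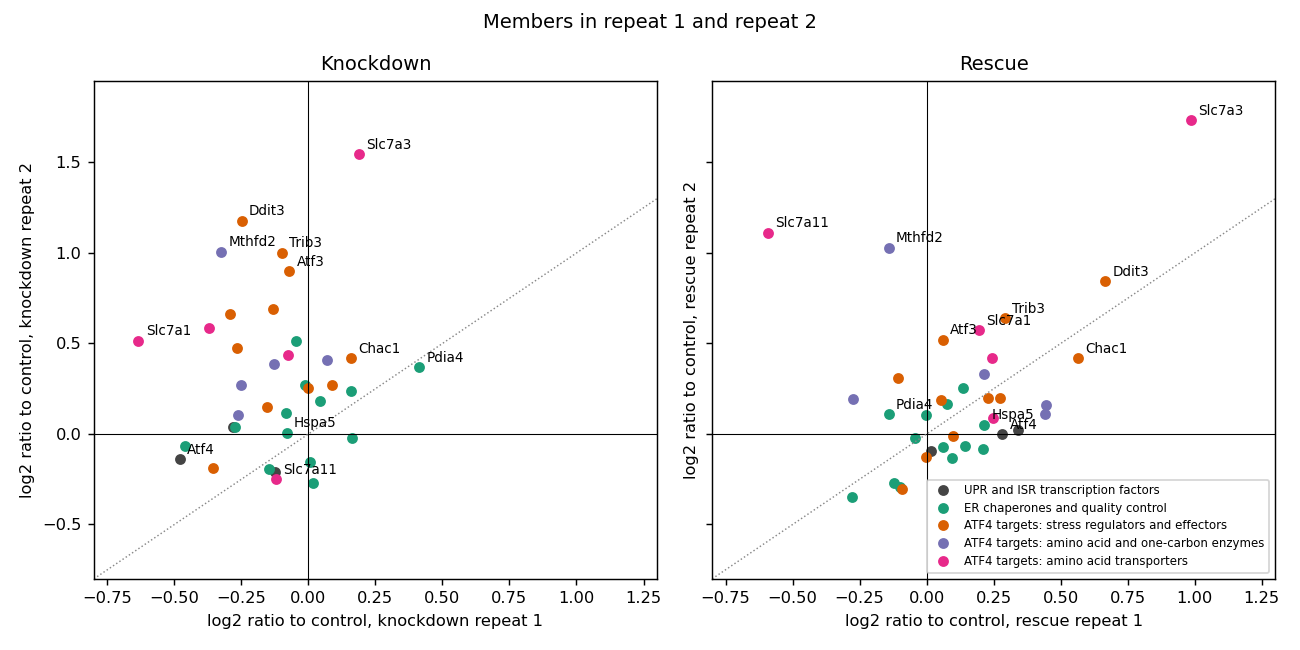
Log2 ratio of each member in repeat 2 (vertical axis) against repeat 1 (horizontal axis), for the knockdown at the left and the rescue at the right, coloured by role, with equality as a dotted line. In the knockdown most ATF4 targets lie at the upper left, below control in repeat 1 and above it in repeat 2, and in the rescue 14 of 21 lie above control in both.

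Within a repeat the shared control array cancels between knockdown and rescue, and there the repeats differed. In repeat 1 the median of the ATF4 targets was -0.35 in the knockdown against the rescue and 2 of 21 were higher in the knockdown (9.52%, against 48.0% of all genes). In repeat 2 it was 0.16, and 14 of 21 were higher (66.7%, against 57.7%). The largest differences were Ddit3 at -0.92 and 0.33, Slc7a1 at -0.83 and -0.06, Slc7a3 at -0.80 and -0.19 and Slc7a11 at 0.47 and -1.36 in repeats 1 and 2. The chaperone median was -0.10 and 0.19. Chaperones and targets thus differed by -0.24 in repeat 1 and by -0.03 in repeat 2, targets minus chaperones.

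Knockdown and rescue values did not overlap for 8 of 37 members (21.6%), against 31.6% of all genes. Atf4, Xbp1, Hspa5, Manf and Chac1 had both knockdown values below both rescue values, and Dnajc3, Pdia4 and Creld2 had them above. Of these 8, 1 was an ATF4 target.

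Other genes of the same pathways gave 84 measured of 91 listed, and 0 passed in limma in any comparison. Over all genes 0.306% passed in knockdown against control, 0.0% in rescue against control and 0.0702% in knockdown against rescue. The aminoacyl-tRNA synthetases, many of them ATF4 targets that charge tRNAs with amino acids, had medians of -0.16 and 0.13 in the knockdown and at 0.11 and 0.12 in the rescue. Of 16 measured, 0 were above control in knockdown repeat 1, and 11, 13 and 11 in knockdown repeat 2 and the rescue repeats. Tars was at -0.06 and 0.42 and at 0.25 and 0.73, and Hars below control in all samples at -0.30 and -0.33 and at -0.10 and -0.18. As for the ATF4 targets, the median was below control in knockdown repeat 1 and above it in the other samples.

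A further list of 28 ATF4 targets and amino acid genes had medians of -0.08, 0.23, 0.02 and 0.18 in the order of knockdown repeats 1 and 2 and rescue repeats 1 and 2. Aldh1l2, a mitochondrial folate enzyme, was split by repeat as Mthfd2 was, at -0.19 and 1.13 in the knockdown and at -0.10 and 0.94 in the rescue. Slc1a5, a glutamine carrier, was at 0.21 and 0.80 and at 0.10 and 0.41. The remaining ER folding, translocation and degradation genes (31 measured) had medians between -0.03 and 0.05. Those of the sensors and eIF2alpha kinases (9 measured) were -0.05, 0.07, -0.05 and 0.08, with Eif2ak3 (PERK) at -0.07 and 0.07 and at -0.09 and 0.20, and Eif2ak4 (GCN2) at -0.20 and 0.02 and at -0.05 and 0.12. With the repeat as a block, 4 of the 84 passed in the knockdown against control, where 5.39% of all genes did. Aldh1l2 and Slc1a5 were higher, and Ero1b, an ER oxidase, and Ostc, a subunit of the oligosaccharyltransferase, were lower.

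Lists outside these pathways also differed between the samples. Activity-regulated genes, the transcripts raised by neuronal firing, had medians of -1.11 and 0.08 in the knockdown and at 0.39 and 0.63 in the rescue. All 14 were below control in knockdown repeat 1, the sample in which the ATF4 targets were lowest, and 13 were above it in each rescue sample. Homer1 of this list passed in the knockdown against control (mean -1.09, SE 0.12, limma adjusted p = 0.014), where 0.306% of all genes did. Npas4, also at a mean of -1.09, did not (SE 0.42, adjusted p = 0.257), and 3 of the 14 had a knockdown mean above control. Cytosolic heat shock genes (10 measured) had medians of 0.00, 0.06, 0.18 and -0.03, and targets of the oxidative stress factor NRF2 (9 measured) of 0.12, 0.27, 0.02 and 0.02.

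Among markers of cell types, fibroblast genes were at a median of 0.53 in knockdown repeat 2, with 5 of 6 above control and a range of -0.52 to 0.74, and between -0.12 and -0.06 in the other samples. Endothelial genes were at 0.36 there (6 of 6 above control, 0.17 to 0.61) and at -0.01, 0.02 and 0.17 in knockdown repeat 1 and the rescue repeats. Neuron markers (9 measured) had medians of -0.16, -0.39, -0.06 and -0.17, and microglia markers (8 measured) of -0.50, -0.02, -0.55 and -0.15. Astrocyte markers were above control in both knockdown samples (8 of 8 in each, medians 0.32 and 0.37) and at -0.08 and -0.11 in the rescue, and oligodendrocyte lineage markers (7 measured) were at 0.03, 0.21, -0.09 and -0.15. No marker gene passed the test in any comparison. The part of these shifts in the values of the ATF4 targets was not tested, and ratios do not show which markers were at background.

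**Figure D5:**
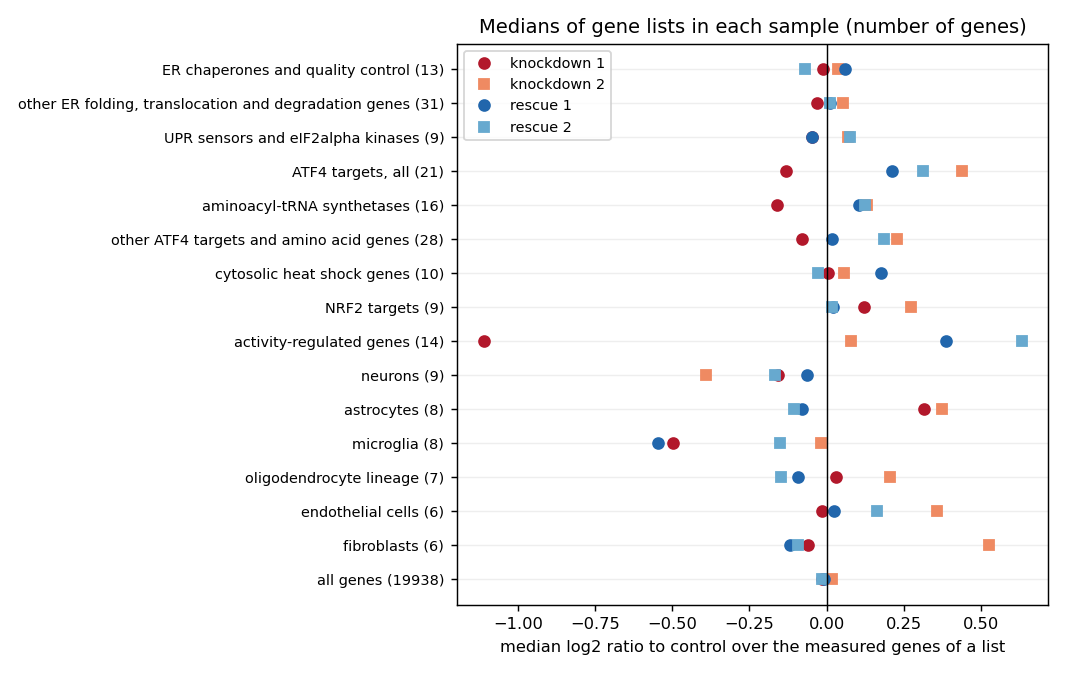
Median log2 ratio to control (horizontal axis) of each gene list in the 4 samples, with the number of measured genes in brackets. The ATF4 targets and the tRNA synthetases share an order in which knockdown repeat 1 is lowest, the activity-regulated genes reach -1.11 in that sample, and the fibroblast genes reach 0.53 in knockdown repeat 2.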

How the data were processed

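RNA of 4 samples was read on Affymetrix mouse Gene 1.0 ST arrays. The authors deposited linear ratios of each test array over the control array of its repeat, per the labels and the design text. The 2 arrays of control RNA were not used here, and background correction, normalization and genome build are not given in the sources used here. Of 35399 probe sets, the platform annotation gives 21789 exactly 1 symbol, 1621 several and 11989 none. Log2 ratios were averaged per symbol with no further scaling (19938 genes, 999 from more than 1 probe set).

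The test was limma 3.58.1 under R 4.3.3 (two-sided, lmFit with eBayes, a coefficient per group, 2 residual and 6.11 prior degrees of freedom), with Benjamini-Hochberg adjustment over all genes and a threshold of 0.05. The code was tested on simulated data. The repeats are paired by a replicate date in the labels. Deviations of same-numbered samples from their group means correlated at 0.305 across genes, and alternatives were a model that adds the repeat as a block, quantile normalization, median centring, a robust variance, every probe set, each replicate left out and trimmed lists.

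The members and all gene lists were chosen with earlier results of these data known, so no list is tested. Every member is named. Full statistics are given for members past the threshold and, for each role and comparison, for the largest mean difference in each direction with the same sign in both repeats. The 1.5-fold size was chosen after the data were seen.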

Additional observations from a re-analysis of the deposited data

Results flagged for a closer look

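Xbp1 was below control in both knockdown samples, at -0.13 and -0.21 on the log2 scale. It was above control in both rescue samples, at 0.34 and 0.02. The value in rescue repeat 2 was 1.02-fold, so close to control that its side of 0 carries little weight. How many of all genes had such a split was not counted. The knockdown minus the rescue was -0.35, or -0.47 in repeat 1 and -0.23 in repeat 2, and missed the threshold (limma adjusted p = 0.856). No group had the 4 samples that a check for single outlying samples needs.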

How the results depend on the processing

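The counts of members past the threshold were the values most open to the processing. Against control the main count of 0 became 1 in the knockdown and 1 in the rescue with the repeat as a block, Slc7a3 in both. That block changed no other call of a member, and its p-values against control leave out the difference between repeats. With each replicate left out in turn the count ranged from 0 to 7 for knockdown against control, from 0 to 2 for rescue against control and from 0 to 3 for knockdown against rescue. It stayed at 0 in all comparisons after quantile normalization, median centring, a robust variance and with every probe set tested. Over all genes, knockdown against control went from 61 calls to 1074 with the block, 20 under quantile normalization and 0 when every probe set was tested, and from 12 to 1272 when a replicate was left out. Rescue against control went from 0 to 25 with the block, to 1 after quantile normalization and to 176 without either knockdown replicate. Knockdown against rescue went from 14 to 123 with the block, to 2 after quantile normalization, to 4 with centring or a robust variance, to 0 with every probe set, and from 0 to 350 when a replicate was left out. Of 168 values of named members under an alternative, 157 kept direction and side of the threshold, 8 newly passed and 3 reversed. Without either knockdown replicate the rescue test against control is the same fit, so its passes of Ddit3 and Slc7a3 are counted again among the 8. The reversals came when replicates were left out, where knockdown against rescue ranged from -0.77 to 0.56 for Mthfd2 and from -1.17 to 0.19 for Slc7a3. Those fits set the remaining sample against the mean of the other group and so break the pairing by repeat. Within repeats 1 and 2 the differences were negative, at -0.18 and -0.02 for Mthfd2 and at -0.80 and -0.19 for Slc7a3. With quantile normalization the ATF4 target medians were -0.13, 0.33, 0.23 and 0.36 (knockdown repeats 1 and 2, then rescue), and with 17 targets and 12 chaperones in trimmed lists they were -0.13, 0.44, 0.24 and 0.33. Pairs of samples and ratios without signal levels limit all of these values.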
